A study of Mus musculus with 4 samples.

Results

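The genes described here encode sensors, adaptors and effectors of the inflammasomes, the cytosolic complexes through which macrophages, including the microglia of the brain, activate the protease caspase-1. In mice, NAIP proteins bind bacterial proteins directly: Naip5 and Naip6 recognise flagellin, Naip2 the rod protein and Naip1 the needle protein of type III secretion systems. A NAIP that has bound its ligand recruits Nlrc4, whereas Nlrp3 responds to membrane damage and ion loss; the adaptor ASC, encoded by Pycard, joins sensors to caspase-1. Caspase-1, encoded by Casp1, matures interleukin-1β and interleukin-18 and cleaves gasdermin D, encoded by Gsdmd, whose fragment forms the pores of pyroptotic cell death.

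A list of 10 genes was followed: Naip1, Naip2, Naip3, Naip5, Naip6, Nlrc4, Nlrp3, Pycard, Casp1 and Gsdmd. They were matched by symbol to probe sets that carried exactly 1 gene symbol. Of the 10, 9 were found, each with 1 probe set; Naip1 had no such probe set and was not analysed here. They stand among 17490 named genes, of which 8745 are called expressed, having a mean log2 intensity of at least 7.19, the median over named genes. The 8 expressed members were Naip2, Naip3, Naip5, Naip6, Nlrp3, Pycard, Casp1 and Gsdmd. Nlrc4 lay under the floor on all 4 arrays. The genes were chosen with their values on these arrays known, so that all values and counts below are descriptions.

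The material was microglia isolated from the whole brain of male C57BL/6J mice and measured on 1-colour expression arrays, in 4 groups: OVA, the allergy group, at postnatal day 70 (P70), PBS, its control, at P70, OVA at P30 and PBS at P30. Cells of all 4 groups were taken 1 day after an intranasal challenge. Each group was a pool of 4 samples on 1 array, so the spread between mice is not seen and no p-value was computed. Every difference is a log2 difference between 2 arrays, their number limits the precision, and differences of at least 1.5-fold are counted.

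Over all probe sets the median intensity was 105 in OVA and 111 in PBS at P70, and 132 in OVA and 131 in PBS at P30. Of 12 microglial markers 11 were found, and all 11 were expressed, among them P2ry12, Tmem119 and Sall1. Markers of other cells were present as well: 12 of 15 neutrophil markers and 8 of 9 border macrophage markers were expressed. In pooled RNA, fewer cells of a type and less RNA per cell cannot be told apart.

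The 5 Naip genes form one cluster on chromosome 13, in the order Naip2, Naip5, Naip6, Naip3 and Naip1, and RefSeq (GRCm38.p6) annotates Naip3 as a pseudogene. As copies of one gene they share sequence, and a probe of one copy can bind transcripts of another, so the signal of any single copy is uncertain. The Naip6 probe set carries 2 Entrez identifiers, of which 1 is not in the RefSeq gene table. Promoter windows of 300 bases, 250 before the annotated start and 50 after it, were available from RefSeq (GRCm38.p6) for 8 of the 10 genes, all but Naip3 and Gsdmd. The 4 Naip windows are shown because they let a reader see how alike the copies are outside their coding sequence. All lie on the minus strand and are printed 5′ to 3′. Capitals mark a run of 11 bases that Naip1, Naip2 and Naip5 share and a run of 34 bases that Naip2 and Naip5 share.
Naip2, chr13:100202073-100202372: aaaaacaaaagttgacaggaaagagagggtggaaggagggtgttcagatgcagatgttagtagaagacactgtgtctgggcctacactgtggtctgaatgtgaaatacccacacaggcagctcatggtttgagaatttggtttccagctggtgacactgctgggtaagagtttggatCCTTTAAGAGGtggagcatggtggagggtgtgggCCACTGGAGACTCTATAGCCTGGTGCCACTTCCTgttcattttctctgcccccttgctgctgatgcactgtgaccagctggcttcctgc
Naip5, chr13:100247287-100247586: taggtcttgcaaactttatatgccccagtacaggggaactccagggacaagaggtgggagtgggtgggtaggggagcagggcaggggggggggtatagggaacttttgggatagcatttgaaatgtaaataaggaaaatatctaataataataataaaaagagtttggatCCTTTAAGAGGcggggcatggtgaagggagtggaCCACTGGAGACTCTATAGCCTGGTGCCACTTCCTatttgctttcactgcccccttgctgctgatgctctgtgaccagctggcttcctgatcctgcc
Naip6, chr13:100316567-100316866: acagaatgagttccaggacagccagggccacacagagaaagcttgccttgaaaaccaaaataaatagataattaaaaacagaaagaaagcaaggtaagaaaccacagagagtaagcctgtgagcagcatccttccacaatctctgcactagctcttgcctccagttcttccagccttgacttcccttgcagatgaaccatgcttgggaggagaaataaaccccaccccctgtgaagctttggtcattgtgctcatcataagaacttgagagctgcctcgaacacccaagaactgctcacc
Naip1, chr13:100452815-100453114: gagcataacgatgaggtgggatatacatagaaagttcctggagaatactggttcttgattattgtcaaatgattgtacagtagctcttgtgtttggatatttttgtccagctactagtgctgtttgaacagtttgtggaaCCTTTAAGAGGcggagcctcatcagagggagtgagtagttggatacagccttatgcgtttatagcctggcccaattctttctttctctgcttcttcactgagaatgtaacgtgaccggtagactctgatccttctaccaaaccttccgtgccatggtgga

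The Naip2 and Naip5 windows aligned without a gap over 134 bases, of which 123 were identical and 11 differed. The run of 11 bases shared by Naip1, Naip2 and Naip5 began 110 bases upstream of the start in Naip1, 73 in Naip2 and 80 in Naip5. Its letters, CCTTTAAGAGG, occur on either strand in 30 of 32851 RefSeq promoter windows, or 0.0913%. The Naip6 window holds neither run, and its longest exact run in common with another Naip window was 9 bases, shared with Naip1. Among the 30 pairs that include a window of another member, or of both Nlrp3 starts, the longest exact run ranged from 7 to 10 bases. The core recognised by Ets factors, AGGAAGT, was found on either strand in the windows of Naip2, Naip5, Nlrc4 and Pycard, and in 9.35% of all windows; in Naip2 and Naip5 it lies, on the reverse strand, within the capitals. The AP-1 letters TGANTCA, present on either strand in 7.81% of all windows, were in none of the member windows.

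OVA was first set against PBS at each age, the contrast for which the series was made. Naip6, a flagellin sensor, was far lower in OVA at both ages. Its level was 8.74 in OVA and 10.05 in PBS at P70, and 8.66 in OVA and 10.69 in PBS at P30. The 2 OVA arrays lay close together and both PBS arrays stood well above them. Naip6 was thus 2.47-fold lower in OVA at P70 and 4.11-fold lower at P30. It had the lowest OVA difference of the 8745 expressed genes at P30 (-2.04) and the sixth lowest at P70 (-1.30). It was also the 1 expressed gene, 0.0114% of them, with both OVA arrays at least 1.5-fold below both PBS arrays.

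**Figure D1:**
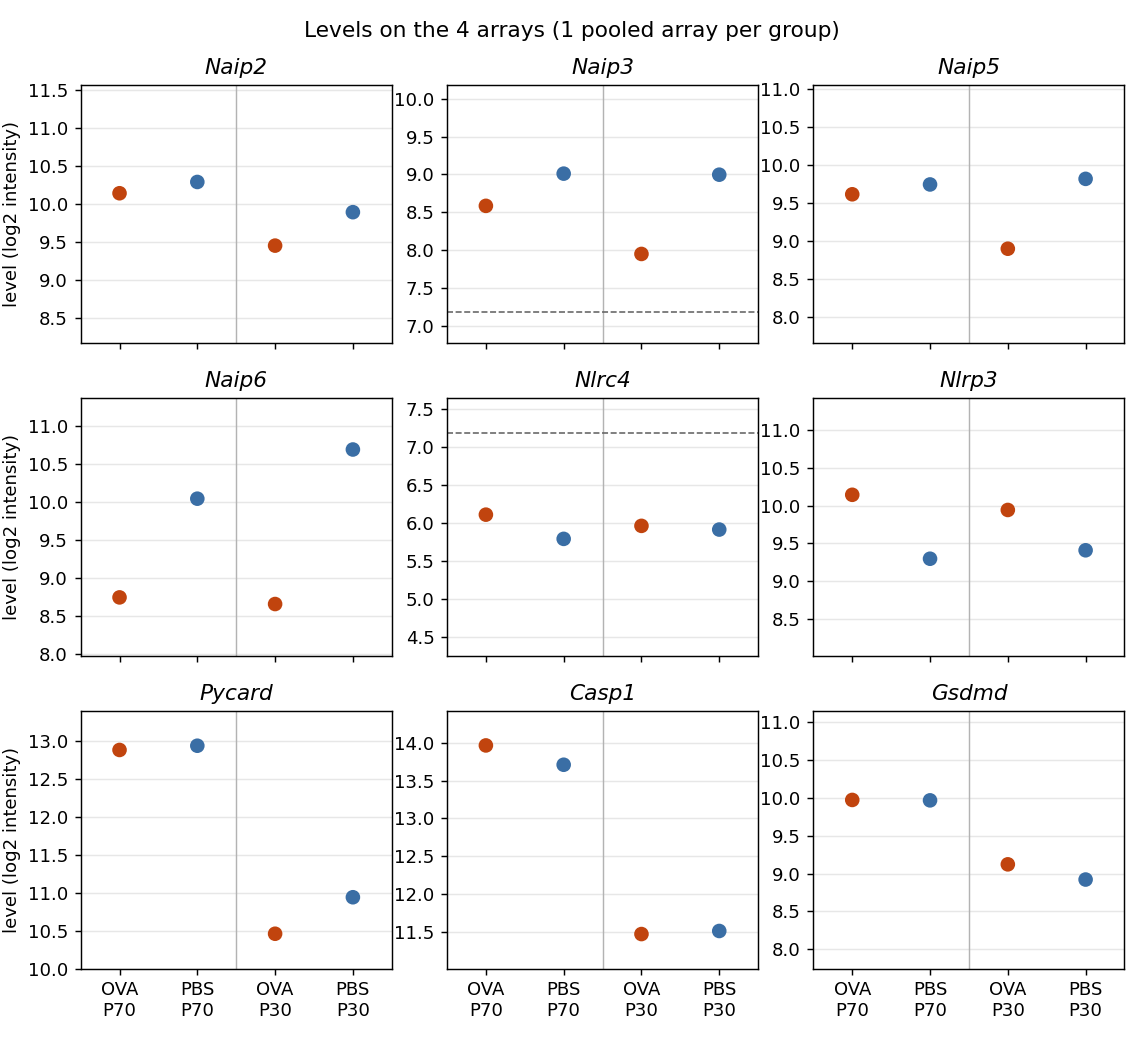
Level (log2 intensity) of each of the 9 genes found, on the arrays of OVA (red) and PBS (blue) at P70 and P30, 1 point per array. Every panel spans the same range, and the dashed line marks the expression floor of 7.19: Naip6 stands at 8.74 and 8.66 in OVA, against 10.05 and 10.69 in PBS, while Pycard and Casp1 are separated by age.

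The other flagellin sensor, Naip5, had levels of 9.61 in OVA and 9.74 in PBS at P70, and of 8.89 in OVA and 9.82 in PBS at P30. The OVA array at P30 stood apart from the other three, with a difference of -0.92, while the P70 arrays differed by -0.13. Naip3, the annotated pseudogene, was at 8.59 in OVA and 9.01 in PBS at P70, and at 7.95 in OVA and 8.997 in PBS at P30. Its PBS arrays were nearly equal and both OVA arrays lay below them, by 0.43 at P70 and by 1.05, or 2.06-fold, at P30. Naip2, the rod protein sensor, was at 10.14 in OVA and 10.29 in PBS at P70, and at 9.45 in OVA and 9.89 in PBS at P30. Its differences of -0.15 at P70 and -0.44 at P30 did not reach 1.5-fold. The low array was again that of OVA at P30, and the PBS value at P30 lay under the OVA value at P70.

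All 4 measured Naip genes were therefore lower in OVA at both ages, and each of them by more at P30. At P70 the differences of Naip2, Naip3 and Naip5 lay within the central 95% of expressed genes, which ran from -0.45 to 0.67. Naip6 alone lay outside it there. At P30, where this range began at -0.44, all 4 lay below it, Naip2 only just. A probe of one copy can bind transcripts of another, so the 4 Naip genes are not separate observations. Their median OVA difference was -0.29 at P70 and -0.98 at P30, beside medians of 0.091 and -0.014 over all expressed genes. Of the 8 expressed members, 3 were at least 1.5-fold lower in OVA at P30, Naip3, Naip5 and Naip6, where 0.881% of all expressed genes were, and none was higher, where 0.652% were. At P70 Naip6 alone was at least 1.5-fold lower (1.19% of expressed genes) and Nlrp3 alone higher (3.98%). Both OVA arrays lay below both PBS arrays for 3 of the 8 members, Naip3, Naip5 and Naip6, and for 3.43% of expressed genes.

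The OVA difference of 1 copy can be set against the mean OVA difference of the other 3, and a constant offset between arrays then cancels. This contrast, in log2 units, was -1.07 at P70 and -1.24 at P30 for Naip6. For Naip3 it was 0.10 at P70 and 0.088 at P30, for Naip5 it was 0.50 and 0.25, and for Naip2 it was 0.47 and 0.89. By construction the contrasts cancel in sum over the copies, and Naip6 enters the mean used for each of the other 3. Their positive values therefore do not show that these copies were raised. Among these 3 copies Naip3 had the lowest OVA difference at both ages, -0.43 at P70 and -1.05 at P30. The contrasts show unequal differences among the copies, and the share of cross-binding in them was not tested.

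Genes listed as lying near the Naip cluster gave a comparison from the same stretch of chromosome 13. Of 14 listed genes 10 were found and 6 expressed: Smn1, Serf1, Bdp1, Mccc2, Rad17 and Cdk7. None of the 6 was at least 1.5-fold lower in OVA at either age, where 1.19% of expressed genes were at P70 and 0.881% at P30. With such shares a count of none among 6 genes says little. Their median OVA differences were 0.066 at P70 and 0.050 at P30. Rad17, a DNA damage checkpoint gene, was at 8.18 in OVA and 7.59 in PBS at P70. It was the 1 neighbour at least 1.5-fold higher there (3.98% of expressed genes). The lowest neighbour at P30 was Cdk7, which encodes a kinase of the general transcription factor TFIIH, at 7.98 in OVA and 8.42 in PBS.

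**Figure D2:**
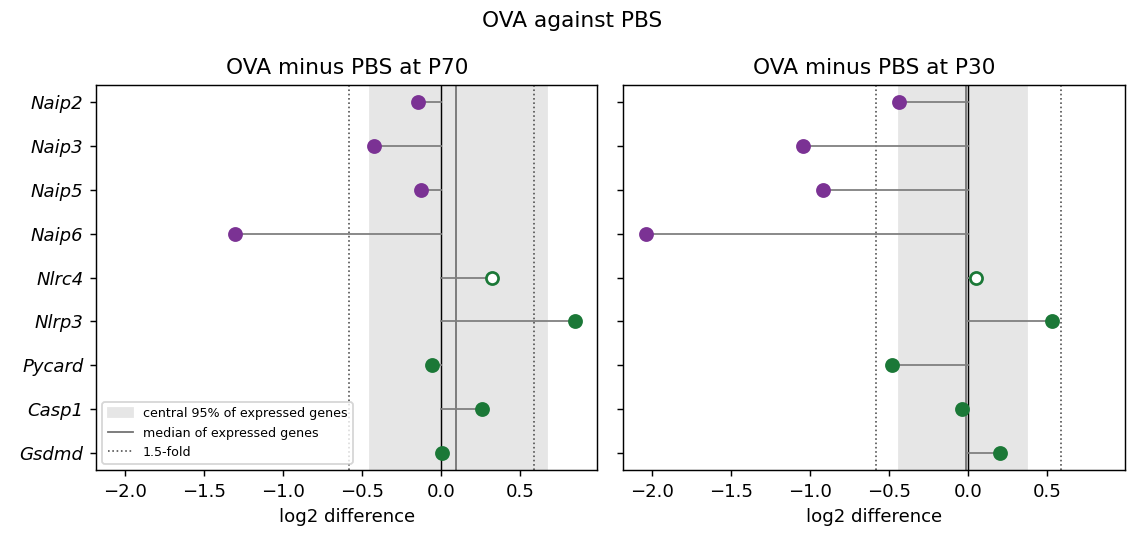
OVA minus PBS (log2 difference) at P70 (left) and P30 (right) for the 4 Naip genes (purple) and the 5 single-copy genes (green); the open symbol is Nlrc4, under the floor. Grey bands hold the central 95% of expressed genes, the grey line is their median and dotted lines mark 1.5-fold: Naip6 lies far to the left in both panels and Nlrp3 to the right.

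Nlrc4, the partner on which all NAIP sensors act, was dim on every array. Its level was 6.11 in OVA and 5.79 in PBS at P70, and 5.96 in OVA and 5.91 in PBS at P30. All 4 values lay under the floor, so the size of its differences is uncertain.

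Nlrp3 had the highest OVA difference of the expressed members at both ages. Its level was 10.14 in OVA and 9.30 in PBS at P70, and 9.94 in OVA and 9.41 in PBS at P30. The OVA and PBS arrays did not overlap, as for 6.92% of expressed genes in this direction. Nlrp3 was 1.79-fold higher in OVA at P70 and 1.45-fold higher at P30, which is under 1.5-fold. Its differences of 0.84 and 0.53 ranked 78th and 74th from the highest of the 8745 expressed genes. By the gap between the lower OVA and the higher PBS array (0.53), Nlrp3 ranked 4th among expressed genes.

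The shared adaptor and the effectors were less than 1.5-fold apart between OVA and PBS. Pycard was at 12.88 in OVA and 12.94 in PBS at P70, and at 10.46 in OVA and 10.94 in PBS at P30. Casp1 was at 13.96 in OVA and 13.71 in PBS at P70, and at 11.47 in OVA and 11.51 in PBS at P30. Gsdmd was at 9.97 in OVA and 9.97 in PBS at P70, and at 9.12 in OVA and 8.92 in PBS at P30. The OVA difference farthest from 0 was that of Pycard at P30, -0.48, just outside the central 95% of expressed genes, which began at -0.44. The 4 expressed single-copy genes had a median OVA difference of 0.13 at P70 and 0.080 at P30. The Naip medians of -0.29 and -0.98 lay below these, and without Naip6 the Naip medians were -0.15 and -0.92.

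**Figure D3:**
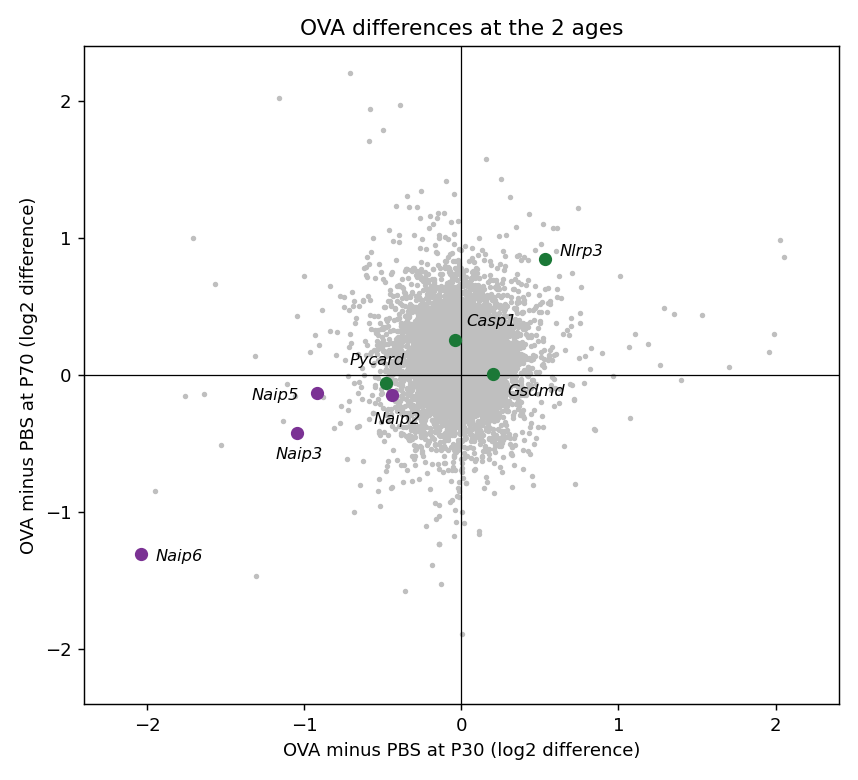
OVA minus PBS at P30 (x axis) against P70 (y axis), as log2 differences, for the expressed genes (grey) and the 8 expressed members (Naip genes purple, single-copy genes green); 2 genes lie outside the plotted range. Naip6 is at the far lower left (-2.04 and -1.30), Naip3 and Naip5 lie left of centre, and Nlrp3 is at the upper right (0.53 and 0.84).

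Markers of neutrophils, border macrophages and other brain cells differed between OVA and PBS as well. The summed intensity of the 12 expressed neutrophil markers was 763461 in OVA and 894935 in PBS at P70, and 30215 in OVA and 78409 in PBS at P30. At P30, where 3 Naip genes were at least 1.5-fold lower in OVA, 7 of the 12 neutrophil markers were too (0.881% of expressed genes), with a median of -1.10. At P70, where the OVA difference of Naip6 was -1.30, the numbers were 2 of 12 (1.19% of expressed genes) and -0.050. The 8 expressed border macrophage markers summed to 9261 in OVA and 3424 in PBS at P70, where Nlrp3 was higher, and to 1955 in OVA and 2280 in PBS at P30. Their median OVA difference was 1.18 at P70 and -0.20 at P30. Summed monocyte markers, 7 of them expressed, stood at 24719 in OVA and 22000 in PBS at P70, and at 2226 in OVA and 2091 in PBS at P30. The median OVA difference of the 7 was 0.48 at P70 and 0.017 at P30. At P70, 2 of the 7 were at least 1.5-fold higher in OVA (3.98% of expressed genes). Of 11 markers of other brain cells 10 were found and 3 expressed, Ttr, Slc1a3 and Pecam1. These 3 summed to 5152 in OVA and 955 in PBS at P70, and to 1280 in OVA and 709 in PBS at P30. This sum, like Nlrp3, was higher in OVA at both ages, mainly through Ttr. The OVA differences of Ttr were 4.12 at P70 and 1.87 at P30. Those of Slc1a3 were 0.70 and 0.34, and those of Pecam1 -0.13 and 0.11. Ttr, the transthyretin gene of the choroid plexus, was at 12.02 in OVA and 7.90 in PBS at P70, and at 9.32 in OVA and 7.45 in PBS at P30. The part of these cells in the Naip and Nlrp3 differences was not tested.

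The second comparison set P70 against P30 within each treatment. Pycard and Casp1, the adaptor and the protease, stood far higher at P70 than at P30 whichever the treatment. As deposited, the age differences of the Naip genes and Nlrp3 were smaller. Between the 2 ages the median of all expressed genes itself differed, by 0.39 in OVA and 0.26 in PBS, so the members are read beside these values. The median intensity over all probe sets was instead lower at P70 in both treatments. The array difference between the ages thus varied with the level. Casp1 was 5.61-fold higher at P70 in OVA (2.49) and 4.57-fold higher in PBS (2.19). Pycard was 5.37-fold higher in OVA and 4.00-fold higher in PBS. After lowess centring along the level, the log2 differences were 1.35 in OVA and 1.25 in PBS for Casp1, and 1.33 in OVA and 1.10 in PBS for Pycard. As deposited, without centring, Casp1 and Pycard lay beyond the central 95% of expressed genes in both treatments. This range of uncentred values ended at 2.11 in OVA and 1.84 in PBS. No such range was computed after lowess centring. Gsdmd, the pore-forming substrate, was 1.80-fold higher at P70 in OVA and 2.06-fold higher in PBS; with each array centred on its median its differences were 0.43 and 0.75, and after lowess centring along the level they were 0.11 and 0.52, under 1.5-fold in both treatments. For Pycard, Casp1, Gsdmd and Naip2 both P70 arrays stood above both P30 arrays, as they did for 63.6% of expressed genes.

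As deposited, the age differences of the sensors were small beside those of Casp1 and Pycard. In OVA, Naip2, Naip3 and Naip5 were 0.69, 0.63 and 0.72 higher at P70, which is between 1.55-fold and 1.65-fold; with each array centred on its median they were 0.27, 0.22 and 0.30. In PBS the same genes differed by 0.40, 0.01 and -0.07. Naip6 differed by 0.09 in OVA and by -0.65, or 1.57-fold lower, in PBS. Nlrp3 differed by 0.20 in OVA and -0.11 in PBS. At P70, 6 of the 8 expressed members were at least 1.5-fold higher in OVA (38.7% of expressed genes) and 3 in PBS (29.2%). These shares rise with the level. Among genes at or above a stricter floor of 8.45, which all 8 members reach, they were 60.7% in OVA and 47.2% in PBS. None of the 8 was lower in OVA (4.27%) and Naip6 alone was lower in PBS (2.87%). The age difference in OVA exceeded that in PBS by at least 1.5-fold for Naip3, Naip5 and Naip6 (7.79% of expressed genes), and for no member did it lie as far below it (2.22%). The directions of Naip2 in both treatments, of Naip3 in PBS, and of Naip6 and Nlrp3 in OVA turn when the arrays are centred along the level. The order of sizes changes too. With this centring Naip6 in PBS was at -1.37, larger in size than Casp1 (1.25) and Pycard (1.10) there. Naip5 in PBS was then at -0.68, and Nlrp3 at -0.68 in OVA and -0.61 in PBS, all past 1.5-fold. The comparisons at the 2 ages and in the 2 treatments share arrays, so the P30 OVA array alone enters both the low OVA values at P30 and the positive age differences in OVA.

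**Figure D4:**
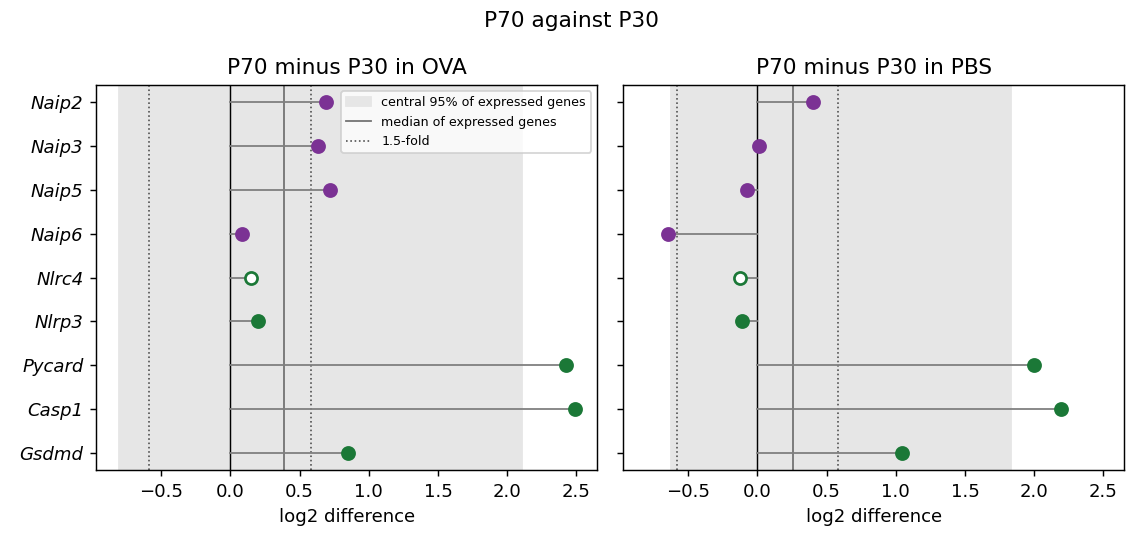
P70 minus P30 (log2 difference) in OVA (left) and PBS (right) for the 4 Naip genes (purple) and the 5 single-copy genes (green); the open symbol is Nlrc4, under the floor. Grey bands hold the central 95% of expressed genes, the grey line is their median and dotted lines mark 1.5-fold: Casp1 and Pycard lie to the right of the band in both panels and Gsdmd inside it.

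The markers of neutrophils and monocytes differed between the ages too. The neutrophil sums above were 763461 in OVA at P70 against 30215 in OVA at P30, and 894935 in PBS at P70 against 78409 in PBS at P30. Of the 12 expressed neutrophil markers 10 were at least 1.5-fold higher at P70 in each treatment, with medians of 3.65 in OVA and 2.33 in PBS. All 7 expressed monocyte markers were higher in OVA and 6 of 7 in PBS, with medians of 2.19 and 1.90. Microglial markers were higher at P70 as well, 6 of 11 in OVA and 5 of 11 in PBS, with medians of 0.85 and 0.55. These counts stand beside 38.7% of expressed genes in OVA and 29.2% in PBS. Among genes at or above the stricter floor of 8.45 the shares were 60.7% and 47.2%, and the medians 0.75 and 0.55. Csf1r, the receptor on which microglia depend, was at 14.72 at P70 and 15.37 at P30 in PBS, a difference of -0.65. Their part in the age differences of Casp1, Pycard and Gsdmd was not tested.

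Genes that act with the members were read from a list of 30, of which 28 were found and 19 expressed. None of the 19 was at least 1.5-fold apart between OVA and PBS at either age, where 5.17% of expressed genes were at P70 and 1.53% at P30. Brcc3 at P70 was just under that threshold, with 9.61 in OVA and 9.03 in PBS (0.58). Their median OVA difference was 0.096 at P70 and 0.0066 at P30. Among the brightest, Txnip, whose product can bind Nlrp3, was at 16.73 in OVA and 16.62 in PBS at P70, and at 17.16 in OVA and 16.78 in PBS at P30. Prkcd, a kinase that can phosphorylate Nlrc4, was at 10.94 in OVA and 10.71 in PBS at P70, and at 10.73 in OVA and 10.71 in PBS at P30.

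With age, 9 of the 19 were at least 1.5-fold higher at P70 in OVA, where 38.7% of expressed genes were, and 7 in PBS, where 29.2% were. Among genes at or above the stricter floor of 8.45, which some of the 19 do not reach, these shares were 60.7% and 47.2%. None of the 19 was lower in either treatment (4.27% in OVA and 2.87% in PBS). Casp4, which encodes the mouse sensor of cytosolic lipopolysaccharide known as caspase-11, led them with 2.07 in OVA and 1.84 in PBS. The caspase-1 substrates Il18 and Il1b were higher by 1.14 and 1.08 in OVA and by 1.10 and 1.07 in PBS. Il1rn, the receptor antagonist of interleukin-1, was higher by 1.01 in OVA and 1.02 in PBS. Nek7 and Brcc3 act on Nlrp3, as binding partner and as deubiquitinase: Nek7 was higher by 1.10 in OVA and 0.92 in PBS, and Brcc3 by 1.78 in OVA and 0.98 in PBS. Casp8, an apical caspase, was higher by 1.02 in OVA and 0.71 in PBS. Nlrp1b, a sensor of pathogen proteases, and Ninj1, which ruptures the plasma membrane of dying cells, passed 1.5-fold in OVA (0.83 and 0.68) and not in PBS (0.50 and 0.58). The medians of the 19 were 0.52 in OVA and 0.38 in PBS, beside 0.39 and 0.26 over all expressed genes.

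**Figure D5:**
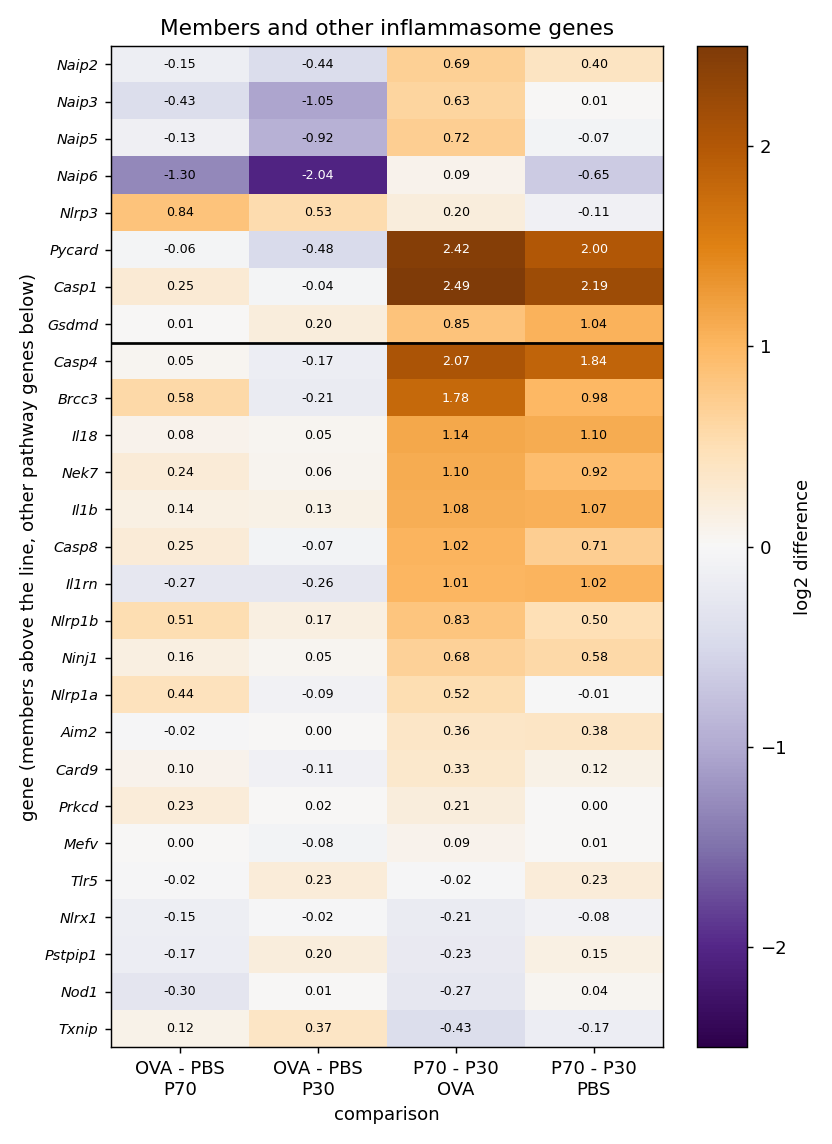
Log2 differences (colour and printed value) of the 8 expressed members (above the line) and 19 other expressed inflammasome genes (below it) in the 4 comparisons. The OVA columns stay within 1.5-fold for every gene below the line, with Brcc3 at P70 (0.58) just inside it, while Naip6 stands at -1.30 and -2.04; the age columns are highest for Casp1, Pycard and Casp4.

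The genes whose 4 values followed Naip6 most closely, among expressed genes outside the lists, were still far from it. The distance is the root of the summed squared differences of the 4 array values, after taking away each gene's mean, in log2 units. It was 1.09 for the embryonic beta-type globin gene Hbb-bh0, 1.10 for Ifnab and 1.11 for Cst10. Hbb-bh0 was at 9.25 in OVA and 9.86 in PBS at P70, and at 9.78 in OVA and 10.50 in PBS at P30. For Nlrp3 the closest genes were much nearer: the monocyte chemokine gene Ccl2 at 0.14, Stom at 0.18 and Mid1 at 0.20. Ccl2 was at 9.43 in OVA and 8.74 in PBS at P70, and at 9.22 in OVA and 8.79 in PBS at P30. With 4 arrays, such likeness describes these arrays alone.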

How the data were processed

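RNA was isolated with TRIzol, cleaned on columns and labelled with the GeneChip WT Pico kit, per the labels' protocols. The deposited values are intensities per probe set and array, already normalized by the authors; per the submitters' processing notes, Affymetrix Expression Console 1.4.1 and RMA were used, with no role given. Their range, with highest values between 873707 and 999952, was read as linear. The genome build and the scaling between arrays are not given in the sources used here.

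Log2 was taken with no further normalization (Python 3.11.15, pandas 2.3.3). Of 65956 probe sets, 30604 carried 1 gene symbol, 2146 several and 33206 none here; 827 symbols were updated through Entrez identifiers with RefSeq (GRCm38.p6). Olfactory and vomeronasal receptors, antigen receptor segments, small RNAs and predicted genes were left out (12652 symbols), and the brightest probe set stood for a gene. The rule named all members, other pathway genes at least 1.5-fold apart in any comparison and the 4 brightest, neighbours of the Naip cluster, and the 3 genes most like Naip6 and Nlrp3. Members and lists were chosen with earlier results of these data known. Alternatives changed the normalization, probe set rule, filter and threshold; the calculation of differences and counts was checked on simulated shifts. Promoter windows were aligned locally with Biopython 1.88.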

Additional observations from a re-analysis of the deposited data

Results flagged for a closer look

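For 2 members the age difference ran in opposite directions in the 2 treatments, by at least 1.5-fold between them. With 1 array per group this difference was not tested. Naip5 differed between P70 and P30 by 0.72 in OVA and by -0.07 in PBS, a difference of 0.79 between the treatments. Naip6 differed by 0.09 in OVA and by -0.65 in PBS, a difference of 0.74; with each array centred on its median both its values were below 0, -0.33 in OVA and -0.95 in PBS. Across all expressed genes 7.79% had such a difference of at least 1.5-fold in this direction.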

How the results depend on the processing

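No paired analysis was possible because each group holds 1 array and the labels number all of them 1; for the same reason no array could be left out. No probe set with several symbols listed a member, so taking those in was not run. Member values recomputed under the 3 other normalizations numbered 135. Of these, 117 kept their direction, where called, and their side of 1.5-fold, 13 came under it, 4 passed it and 1 turned. The 117 include values under 1.5-fold as deposited that stayed under it, those of Nlrc4 among them. The 13 and the 1 were all called as deposited, so called values were less stable than 117 of 135. The filters and the probe set rule leave a member's own value as it is. The OVA differences of Naip6 ranged from -1.45 to -1.20 at P70 and from -2.04 to -1.99 at P30, and that of Nlrp3 at P70 from 0.69 to 0.85. One called difference turned: Naip2 for P70 minus P30 in OVA was -0.12 after lowess centring along the level. A count of members was taken as moved when it changed by more than 1.5-fold, or to or from 0. Smaller changes are not listed below, among them 6 to 4 higher at P70 in OVA under quantile normalization. The counts that moved follow, and the cause was not tested beyond the construction of each setting. Quantile normalization left 1 member higher in OVA at P30, Nlrp3. Lowess centring gave 3 lower at P70 in PBS, 2 higher and 1 lower at P70 in OVA, and 1 whose OVA difference was higher at P70 than at P30 by 1.5-fold, against 3 as deposited; centring each array on its median left 2 higher at P70 in OVA. A 2-fold threshold left 0 higher in OVA at P70, 0 lower at P70 in PBS, 2 higher at P70 in OVA and 0 in the difference of OVA differences. Array signal near background limits Nlrc4.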
